A study of Zea mays with 12 samples.

Results

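A set of 8 oleosin and storage protein genes is described here, out of 37385 genes listed for maize roots. They are 3 oleosins (oleosin, ole1 and oleosin3), a vicilin-like gene (pco130570), a globulin gene (glb1) and 3 legumin-like genes (cl2-1, LOC100283693 and LOC542101). They were taken by name from the deposited tables, which list further oleosin, globulin and zein genes given below, and the choice was made with their levels in these libraries known. Their values and fold differences are therefore a description and carry no test. Of the 8 genes, 6 reached the level needed for the fit over all genes (0.5 FPKM or more in 3 or more libraries), while oleosin3 and glb1 did not.

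Oleosins are small proteins with a long hydrophobic hairpin that anchors them in the surface of oil bodies, the droplets in which seeds keep triacylglycerol. Vicilins and legumins are globulins of the cupin fold that fill protein storage vacuoles. In seeds both groups are switched on late in development with abscisic acid and B3-domain factors such as the maize VP1 protein, together with the late embryogenesis abundant (LEA) proteins. Zeins, the prolamins of maize endosperm, make up a separate class of storage protein.

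The roots came from 40-day-old plants of DengHai605, which the labels call an inbred line. Each of 4 groups has 3 libraries. The control plants had normal nitrogen (N), phosphorus (P) and potassium (K), and the other groups were deficient in K, in N or in P. Within a group the libraries are told apart as 1_3, 4_6 and 7_9. Nothing ties these labels to separate plants, so a p-value here measures only the spread between these libraries.

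Levels are given in FPKM, that is, as fragment numbers scaled to transcript length and library size. Whole reads per library, recovered from the deposited group means, came to between 15791800 and 18694329 per library. K deficiency library 7_9 stood apart, with 26011 genes above 0 against 26928 to 27336 in the others. The root hair gene rth3 had 82.3 to 107.7 FPKM in the control and, overlapping it, 71.0 to 99.4 FPKM in K deficiency. It had 65.8 to 77.3 FPKM in N deficiency, below every control library but not called (limma, adjusted p = 0.176). In P deficiency it fell to 50.7 to 68.7 FPKM, by 0.71 on the log2(FPKM + 1) scale (limma, adjusted p = 0.0146). The other root markers, the root development genes rtcs1 and rtcl1, were scarce, with 68 and 48 reads over the 12 libraries. Both had higher means in every deficiency than in the control and were not called. rtcs1 had 0.141 to 0.550 FPKM in the control and 0.698 to 1.26 FPKM in K deficiency. It had 0 to 0.862 FPKM in N and 0.901 to 1.09 FPKM in P deficiency. rtcl1 had 0 to 0.408 FPKM in the control and overlapped it in every deficiency. The part that a shift in root hair cells has in the results below was not tested. A whole root mixes cell types, and fewer cells of a type cannot be told apart from less RNA per cell.

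The transcript named oleosin (gene 100280608) was the most abundant of the 3 oleosins in the control. Its level was 63.7, 35.4 and 27.8 FPKM in control libraries 1_3, 4_6 and 7_9. In K deficiency it was 1.63, 0.968 and 3.08 FPKM, in N deficiency 0.135, 0.279 and 0.139 FPKM, and in P deficiency 1.73, 1.18 and 0.459 FPKM. Every deficient library was below every control library, and the N-deficient libraries were below all K-deficient and P-deficient ones, while the latter groups overlapped each other. Against the control mean of 42.3 ± 18.9 FPKM (SD, n = 3), the mean was 22.4-fold lower in K deficiency, 229-fold lower in N deficiency and 37.7-fold lower in P deficiency. The fitted differences in log2(FPKM + 1) were -3.88 for K, -5.11 for N and -4.31 for P, each with an SE of 0.33.

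The reads behind these levels were few in the deficient roots. The control libraries held 476, 261 and 214 oleosin reads, whereas the sums over 3 libraries were 37 under K, 4 under N and 23 under P deficiency. The N-deficient libraries held 1, 2 and 1 reads and P-deficient library 7_9 held 3, so their order rests on few reads. The fitted difference of N from P deficiency was -0.80 on the log2(FPKM + 1) scale, with an SE of 0.33. Scaled to library depth, the control exceeded K deficiency by 25.1-fold with an exact 95% counting interval of 18.1 to 35.9. For N deficiency the ratio was 231 with an interval of 89.9 to 849, and for P deficiency it was 37.8 with an interval of 25.1 to 59.98. The intervals cover counting error only and do not test the gene, which was chosen on these levels. In the authors' deposited table the mean normalized count of oleosin was 322 in the control against 12.1 in K deficiency.

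The other oleosins were scarce in all roots. ole1 (gene 542263) had 1.15, 0.913 and 0.868 FPKM in the control. It was listed at 0.583, 0 and 0 FPKM in K deficiency, at 0.283, 0.299 and 0 in N deficiency, and at 0, 0 and 0.318 in P deficiency. Its control libraries stood above all deficient ones by FPKM, but the reads tell the groups apart less well. The control held 6, 6 and 3 reads, K deficiency 2, 3 and 0, N deficiency 1, 2 and 3, and P deficiency 0, 0 and 1. N-deficient library 7_9 thus had 3 reads while its FPKM was listed at 0. By reads scaled to depth the control was 2.43-fold above N deficiency with an interval of 0.890 to 7.64, which includes equal levels. The ratio was 2.93 with an interval of 1.01 to 10.3 for K deficiency and 13.7 with an interval of 2.11 to 578 for P deficiency.

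oleosin3 (gene 100280642) was detected mainly in a pair of control libraries. It had 1.17 and 1.60 FPKM in control libraries 1_3 and 4_6 and 0.1001 FPKM in control library 7_9. It was listed at 0.197 FPKM in K-deficient library 1_3, at 0.214 FPKM in P-deficient library 4_6, and at 0 in the other 7 deficient libraries. Control library 7_9 lay below these values, so the control overlapped the K-deficient and P-deficient groups. No oleosin3 read was recovered in N deficiency against 29 in the control, which were 12, 16 and 1 by library. With 3 reads in the group taken as the floor, the pooled control was 9.39-fold above that floor. This value leaves out the counting error of the control and the spread between its libraries.

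**Figure D1:**
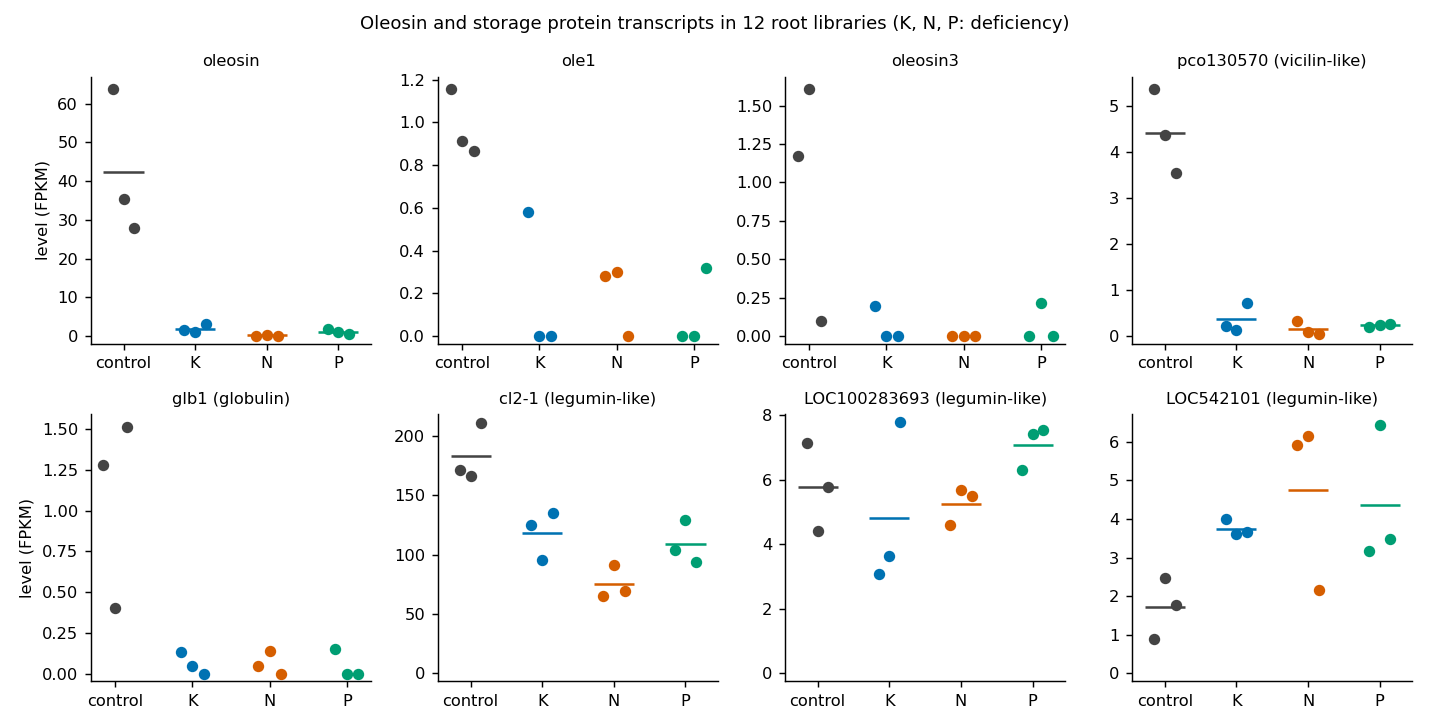
Level in FPKM (linear axes, each panel on its own scale) of the 8 genes in each of 12 root libraries, with the 3 points of a group in the order 1_3, 4_6 and 7_9. Horizontal bars mark group means and are left out for genes listed at 0 in any library. The points for oleosin, pco130570 and glb1 separate control from deficient roots, whereas those for LOC100283693 overlap and those for LOC542101 are mostly higher in deficient roots.

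Of the storage globulins, the vicilin-like gene pco130570 (gene 100280650) stood clearly apart between control and deficient roots. It had 5.35, 4.36 and 3.53 FPKM in the control. In K deficiency the level was 0.229, 0.141 and 0.728 FPKM, in N deficiency 0.321, 0.0953 and 0.0476 FPKM, and in P deficiency 0.202, 0.248 and 0.264 FPKM. The lowest control library was above the highest deficient library, and the deficient groups overlapped one another. The control mean of 4.42 ± 0.910 FPKM (SD, n = 3) was 12.1-fold, 28.6-fold and 18.5-fold above the K, N and P deficiency means. By reads the N ratio was 14.5 with an interval of 9.40 to 23.4, close to the 12.3 of K and the 13.6 of P deficiency. The larger N difference in FPKM was not seen in the reads, where N-deficient libraries held 7, 7 and 8 reads against 139, 103 and 86 in the control.

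The gene glb1 (gene 732801) encodes globulin 1, an abundant storage globulin of the maize embryo. In control roots it had 1.28, 0.404 and 1.52 FPKM. K-deficient libraries were listed at 0.134, 0.0453 and 0 FPKM, N-deficient ones at 0.0440, 0.140 and 0, and P-deficient ones at 0.151, 0 and 0. All deficient libraries lay below the lowest control library, 4_6. The control held 73 reads against 4 under K, 4 under N and 3 under P deficiency. The read ratios were 17.9 with an interval of 6.68 to 67.3 for K, 17.7 with an interval of 6.63 to 66.8 for N, and 22.3 with an interval of 7.32 to 110 for P deficiency.

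The 3 legumin-like genes, named for their likeness to the legumins of seeds, did not share one pattern. cl2-1 (gene 541929) was the most abundant of all 8 genes, at 172, 166 and 211 FPKM in the control. It was at 125, 95.3 and 135 FPKM in K deficiency, 65.6, 91.0 and 69.7 FPKM in N deficiency, and 104, 129 and 94.3 FPKM in P deficiency. Deficient libraries were all below the control ones, and N-deficient libraries were below all K-deficient and P-deficient ones. The control mean of 183 ± 24.4 FPKM (SD, n = 3) exceeded the K mean by 1.54-fold, the N mean by 2.43-fold and the P mean by 1.67-fold. Read ratios of control to deficient roots were 1.61 for K, 2.36 for N and 1.68 for P. The fitted differences in log2(FPKM + 1) were -0.63, -1.27 and -0.74, with an SE of 0.19, so the size of the difference was far smaller than for the oleosin transcript.

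LOC100283693 had 7.12, 4.41 and 5.78 FPKM in the control, and each deficient group overlapped it. Its levels were 3.06, 3.62 and 7.78 FPKM in K deficiency, 4.59, 5.66 and 5.49 in N deficiency, and 6.29, 7.41 and 7.53 in P deficiency. The fitted differences of -0.28, -0.10 and 0.27 on the log2(FPKM + 1) scale had an SE of 0.25, and the N difference was well within it. LOC542101 was the only one of the 8 genes with higher means in the deficient groups in all 3 comparisons. It had 0.885, 2.49 and 1.78 FPKM in the control and 4.003, 3.60 and 3.65 FPKM in K deficiency. It had 5.92, 6.15 and 2.17 FPKM in N deficiency and 3.16, 6.43 and 3.48 FPKM in P deficiency. The K-deficient and P-deficient libraries were all above the control, while N-deficient library 7_9 fell within the control range. Its mean was 2.19-fold, 2.77-fold and 2.54-fold above the control mean of 1.72 ± 0.802 FPKM (SD, n = 3) in K, N and P deficiency.

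In K deficiency, 5 of the 8 genes were below the control in every library and 1 was above it. Over all tested genes, 11.1% were lower without overlap in that comparison and 16.8% higher. In N deficiency 6 of the 8 were lower without overlap and none was higher, against 16.5% and 17.7% of tested genes. In P deficiency 5 were lower and 1 was higher, against 18.0% and 21.2%. The 5 genes lower without overlap in every deficiency were oleosin, ole1, pco130570, glb1 and cl2-1. Among tested genes 5.55% did so. The tested genes behind these shares leave out glb1 and oleosin3. Of the 6 genes that were tested, 4 were lower without overlap in each deficiency, and 1 was higher in K and in P deficiency. Nothing is read from the counts because the genes were chosen on these levels. Among the 6 that reached the minimum, ole1 and pco130570 passed it through the control libraries, with a single deficient library each above 0.5 FPKM. In the control the order of levels ran from cl2-1 and oleosin through LOC100283693, pco130570 and LOC542101 to glb1, ole1 and oleosin3. The control libraries of LOC100283693 and pco130570 overlapped, as did those of the last 4 genes in part.

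**Figure D2:**
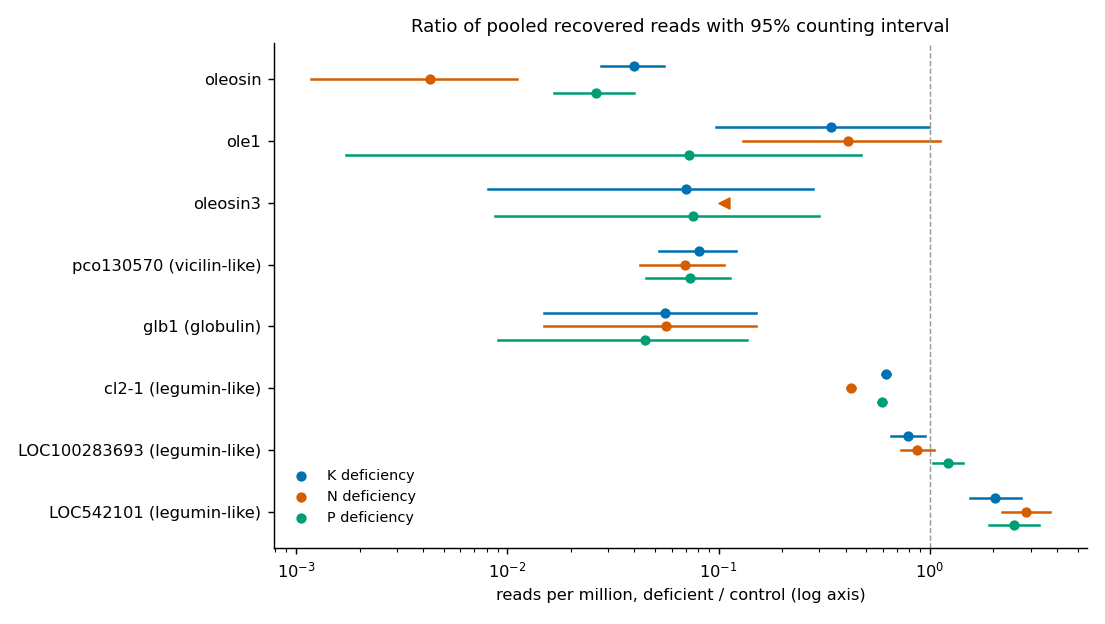
Depth-scaled reads (RPM) in each deficient group divided by the control (log axis) for the 8 genes, from reads summed over 3 libraries. Bars are exact 95% counting intervals, and the triangle for oleosin3 in N deficiency is an upper limit at a floor of 3 reads. Oleosin in N deficiency has the smallest ratio, the vicilin-like gene and glb1 have near-equal ratios in the 3 deficiencies, and LOC542101 lies above 1.

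The 3 comparisons use the same control libraries, so their values for a gene are set side by side and are not independent of each other. Over the 12 libraries, log2(FPKM + 1) of oleosin correlated with that of pco130570 at a Pearson r of 0.98 and with cl2-1 at 0.87. It correlated with ole1 at 0.79, with LOC100283693 at 0.11 and with LOC542101 at -0.75. These correlations describe libraries that fall into control and deficient groups and carry no p.

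Other proteins of the oil body differed among themselves. Of 9 further genes with an oil body name, 5 were tested. Of these 3 fell and 1 rose in K deficiency, 4 fell and 1 rose in N deficiency, and 3 fell and 1 rose in P deficiency. Over all tested genes 3.89%, 9.33% and 10.4% fell in K, N and P deficiency and 4.83%, 9.63% and 13.0% rose (limma, adjusted p under 0.05). The medians over the 5 genes were -0.73, -1.45 and -1.35 on the log2(FPKM + 1) scale, beside 0.07, 0.04 and 0.08 over all tested genes. In every comparison 2 of the genes counted as lower, OBAP1A and OBAP2A, reached the minimum for testing only through the control libraries, where they were high. They had to differ once tested, so the counts and medians are a description, and no p is given for these genes.

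OBAP1A, an oil body-associated protein known from maize embryos, had 48.4, 37.9 and 24.3 FPKM in the control. It was listed at 0.425, 0 and 0 FPKM in K deficiency, 0.422, 0 and 0.176 in N deficiency, and 0.464, 0.274 and 0 in P deficiency. The control held 1477 reads and the deficient groups 5, 11 and 8, and no deficient library came near the control range. OBAP2A, its relative, had 4.74, 3.41 and 3.66 FPKM in the control and at most 0.825 FPKM in any deficient library, with 106 reads in the control and 7, 3 and 1 in K, N and P deficiency.

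Caleosins are calcium-binding oil body proteins with peroxygenase activity. The caleosin LOC100285543 fell less far, from 5.31 ± 0.642 FPKM (SD, n = 3) to 2.79 ± 0.247 in K, 1.31 ± 0.278 in N and 1.49 ± 0.485 in P deficiency. Its limma adjusted p-values were 0.0179, 0.000109 and 0.000241, and the K call was lost without control library 4_6 or K-deficient library 4_6, with adjusted p-values up to 0.0635. The difference of N from K deficiency was -0.72 on the log2(FPKM + 1) scale (limma, adjusted p = 0.0176), in a comparison where 5.93% of tested genes were lower. The difference of P from K deficiency was -0.62 (limma, adjusted p = 0.0369), where 6.29% of tested genes were lower. The caleosin-related gene LOC100282316 went the other way, from 11.1 ± 0.801 FPKM to 17.6 ± 1.5, 17.2 ± 2.91 and 17.6 ± 2.14 FPKM (SD, n = 3), with limma adjusted p-values of 0.0194, 0.0141 and 0.0111. Its K call was lost without control library 4_6 or without K-deficient library 1_3 or 7_9, and its N call without N-deficient library 1_3. The putative peroxygenase pco064372 fell in N deficiency from 18.8 ± 0.921 to 9.42 ± 4.82 FPKM (SD, n = 3; limma, adjusted p = 0.0248). That call was lost in the fit of the 6 compared libraries and without control library 1_3 or 7_9 or N-deficient library 1_3 or 7_9.

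The 4 oil body genes below the minimum had few reads. A second oleosin of the same description as oleosin3, LOC100280594, had 1 read in the 12 libraries, the oleosin LOC100286352 had 17, a steroleosin (LOC100286255) 36 and the peroxygenase IDP1639 13. None of the latter 3 had a read in K deficiency. These 4 names were chosen after their values were seen.

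Genes with names of the synthesis of triacylglycerol, the lipid inside oil bodies, were mostly not called. Of 17 tested, 2 rose and none fell in K deficiency, 2 rose and 1 fell in N deficiency, and 1 fell and none rose in P deficiency. Over all tested genes 4.83% rose and 3.89% fell in K, 9.63% and 9.33% in N, and 13.0% and 10.4% in P deficiency. The list medians were -0.05, 0.04 and -0.11 on the log2(FPKM + 1) scale. Diacylglycerol acyltransferase 1 catalyses the last step, and its genes differed. DGAT1-2 fell in P deficiency from 14.8 ± 2.97 to 6.93 ± 0.565 FPKM (limma, adjusted p = 0.00207), whereas LOC100283803 rose in K deficiency from 13.4 ± 1.56 to 26.1 ± 4.08 FPKM (limma, adjusted p = 0.00599). In N deficiency, LOC100281051, described as glycerol-3-phosphate acyltransferase 8, rose from 2.61 ± 0.808 to 10.3 ± 1.22 FPKM (limma, adjusted p = 0.0013). Such a name does not tell whether the enzyme serves triacylglycerol or another lipid. LOC100304330, a putative lysophosphatidate acyltransferase, rose from 36.9 ± 5.87 to 57.1 ± 8.56 FPKM in N deficiency (limma, adjusted p = 0.0248), a call lost under 6 of 15 alternatives. LOC100280283, described as glycerol-3-phosphate acyltransferase 5, had 13.3 ± 5.71 FPKM in the control and 9.13 to 21.1 in the deficient means. LOC100280283 was not called against the control. It was higher in N than in K deficiency by 1.12 on the log2(FPKM + 1) scale (limma, adjusted p = 0.0199), where 3.88% of tested genes were higher.

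For the breakdown of stored lipid, 20 of 23 genes were tested. In K deficiency 3 rose and 1 fell, in N deficiency 2 rose and 3 fell, and in P deficiency 1 rose and 2 fell. Their medians were 0.13, -0.12 and -0.00 on the log2(FPKM + 1) scale. Beside them, 4.83% of all tested genes rose and 3.89% fell in K deficiency. The shares were 9.63% and 9.33% in N, and 13.0% and 10.4% in P deficiency. The triacylglycerol lipase LOC100281800 fell in all 3 deficiencies, from 4.44 ± 1.34 FPKM to 1.63 ± 0.413, 0.900 ± 0.379 and 0.831 ± 0.268 FPKM (SD, n = 3). Its limma adjusted p-values were 0.0124, 0.000581 and 0.000619, and the K call was lost without control library 1_3. The more abundant lipase LOC100282659 fell from 118 ± 16.9 to 74.3 ± 11.6 FPKM in N deficiency (limma, adjusted p = 0.0233) and to 79.3 ± 6.61 in P deficiency (limma, adjusted p = 0.0413). These calls were lost under 4 and 8 of 15 alternatives. Other lipases rose, and they are named here after their values were seen. LOC100281750 rose from 3.24 ± 0.757 to 6.77 ± 2.28 FPKM in K deficiency (limma, adjusted p = 0.0401). In P deficiency it rose to 9.65 ± 1.31 FPKM (limma, adjusted p = 0.00223). LOC100191842 rose in N deficiency from 0.721 ± 0.634 to 2.49 ± 1.04 FPKM (limma, adjusted p = 0.0474). Neither is among the alternative values counted below. The lipases LOC100277743 and LOC100281723, at 82.5 ± 10.8 and 194 ± 34.6 FPKM in the control, were not called against it. LOC100277743 differed between N and K deficiency, at 43.4 ± 5.84 and 178 ± 63.7 FPKM, by -1.96 on the log2(FPKM + 1) scale (limma, adjusted p = 0.00376). pck2, a phosphoenolpyruvate carboxykinase of gluconeogenesis, rose in K deficiency from 26.6 ± 2.71 to 46.4 ± 5.48 FPKM (limma, adjusted p = 0.00405). LOC100280499, which rose in K deficiency from 8.71 ± 1.47 to 17.9 ± 1.26 FPKM (limma, adjusted p = 0.000942), is a 2-isopropylmalate synthase of leucine synthesis that entered the list through its name.

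**Figure D3:**
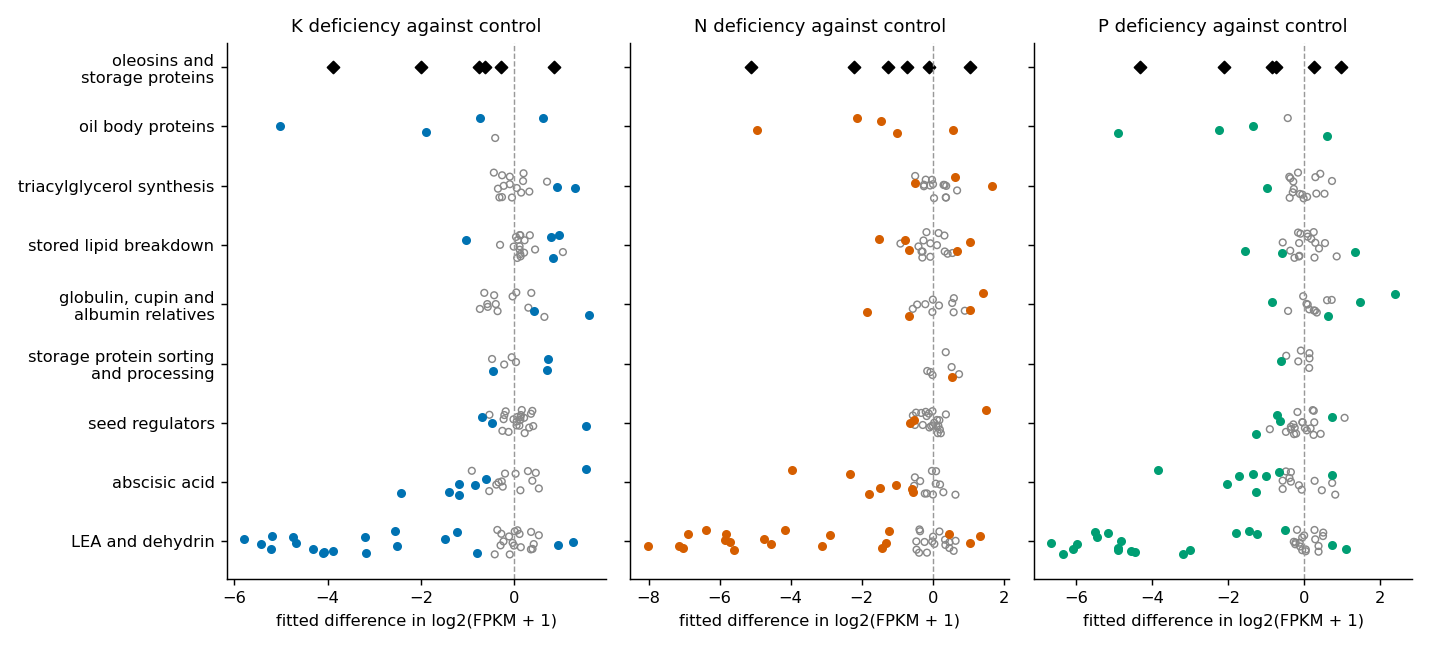
Fitted difference in log2(FPKM + 1) between each deficiency and the control for the 6 tested oleosin and storage protein genes (black diamonds, a description) and for every tested gene of 8 lists. Filled points passed an adjusted p of 0.05 and open points did not, and vertical scatter only separates points. The LEA and dehydrin list and the abscisic acid list extend far below 0. The lowest oil body points are OBAP1A and OBAP2A, which reached the minimum for testing only through the control libraries. The lists for triacylglycerol synthesis and stored lipid breakdown have medians around 0. In the breakdown list LOC100281800 was at -1.55 in P deficiency.

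The zeins and the other named seed globulins had few reads or none. Of 22 genes found with zein or prolamin names, none reached the minimum and 18 had no read in any library. The other 4 genes held 110 reads in all, of which 103 were of Floury1. In every group the summed level stayed between 0.152 and 0.631 FPKM per library. For a gene without a read, a count of 0 among 209881067 reads allows up to 3 reads, counting error only. Legumin 1 (leg1) had 1 read and globulin 2 (glb2) had 7 in the 12 libraries. Globulin 3 (glb3) had 0.364, 0.952 and 0.955 FPKM in the control and group means of 1.21, 1.68 and 1.15 FPKM in K, N and P deficiency, and was not called. leg1, glb2, glb3 and Floury1 were named after their values were seen.

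The broader list of globulin, cupin and albumin names held 14 tested genes, most of them cupin enzymes and lipid transfer proteins that are not known as storage proteins. In K deficiency 2 rose and none fell, in N deficiency 2 rose and 2 fell, and in P deficiency 3 rose and 1 fell. Over all tested genes 4.83% rose and 3.89% fell in K, 9.63% and 9.33% in N, and 13.0% and 10.4% in P deficiency. The list medians were -0.19, 0.09 and 0.27 on the log2(FPKM + 1) scale. TIDP2900, a cupin enzyme, rose in every deficiency, from 6.12 ± 2.24 FPKM to 20.2 ± 3.81, 18.4 ± 7.66 and 18.5 ± 3.64 FPKM (SD, n = 3), with limma adjusted p-values of 0.00602, 0.00567 and 0.0052. The cupin gene pco117817(260) fell in N deficiency from 15.9 ± 2.35 to 3.71 ± 1.02 FPKM (limma, adjusted p = 3.17e-05) and in P deficiency to 8.45 ± 0.350 FPKM (limma, adjusted p = 0.00767). The difference of N from P deficiency was -1.02 on the log2(FPKM + 1) scale (limma, adjusted p = 0.00481), where 5.47% of tested genes were lower.

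Other genes of that list were called in a single deficiency. LOC100283547, a cupin, rose in N deficiency from 20.2 ± 5.42 to 41.9 ± 4.19 FPKM (limma, adjusted p = 0.00564). IDP774, another cupin, fell in N deficiency from 47.1 ± 2.29 to 29.3 ± 4.51 FPKM (limma, adjusted p = 0.0298), a call lost under 5 of 15 alternatives. gpm644, of the lipid-transfer and seed albumin superfamily, rose in P deficiency, from 10.1, 19.1 and 36.5 FPKM in the control to 209, 80.7 and 71.1 FPKM (limma, adjusted p = 0.0195). That call was lost without control library 1_3 or 4_6 or P-deficient library 1_3. pco137523, of the same superfamily, had 52.4 ± 1.65 FPKM in the control and 33.3 ± 1.37, 35.5 ± 5.89 and 40.0 ± 11.6 FPKM in K, N and P deficiency (SD, n = 3), with limma adjusted p-values of 0.0509, 0.0503 and 0.113.

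Some genes that sort or cleave storage proteins on their way to the vacuole were called, in both directions. Of 7 tested, 2 rose and 1 fell in K deficiency, 1 rose in N deficiency and 1 fell in P deficiency, with medians of -0.05, 0.37 and -0.08 on the log2(FPKM + 1) scale. Over all tested genes 4.83% rose and 3.89% fell in K deficiency, 9.63% rose in N and 10.4% fell in P deficiency. The vacuolar sorting receptor LOC100286125 rose in K deficiency from 49.3 ± 9.36 to 81.2 ± 12.5 FPKM (limma, adjusted p = 0.0225). The legumain-like protease see2a rose from 11.1 ± 0.342 to 19.3 ± 2.31 FPKM in K deficiency (limma, adjusted p = 0.0143) and to 17.1 ± 4.0 FPKM in N deficiency (limma, adjusted p = 0.0294). The vacuolar processing enzyme vpe1 fell from 1.14 ± 0.190 to 0.568 ± 0.119 FPKM in K deficiency (limma, adjusted p = 0.0401) and to 0.408 ± 0.0246 FPKM in P deficiency (limma, adjusted p = 0.00574). The K and N calls of these genes were lost under 2 to 10 of 15 alternatives. pco079297 and vacs1, a processing enzyme and a sorting receptor at 27.5 ± 3.09 and 27.8 ± 0.918 FPKM in the control, were not called.

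The best-known seed regulators were at or near 0. vp1, whose product activates maturation genes in the seed, had 0.0333, 0 and 0.129 FPKM in the control, 0.0649, 0 and 0 in K deficiency, and was listed at 0 in N and P deficiency, with 8 reads in all. lec1, a seed transcription factor, had no read in any library. The zein regulators o2 and pbf1 had 3 reads each. Of 24 tested genes with names of seed regulators, many of them general B3-domain proteins, 1 rose and 2 fell in K deficiency, 1 rose and 2 fell in N deficiency, and 1 rose and 3 fell in P deficiency. Over all tested genes 4.83% rose and 3.89% fell in K, 9.63% and 9.33% in N, and 13.0% and 10.4% in P deficiency. The list medians were 0.09, -0.03 and -0.11 on the log2(FPKM + 1) scale. LOC542296, described as an opaque2 modifier and counted as lower in all 3, had 0.879, 0.602 and 0.517 FPKM in the control and at most 0.121 FPKM in any deficient library. LOC100193310, a B3-domain gene counted as higher in N deficiency, had 0.351 ± 0.0702 FPKM in the control and 2.85 ± 0.804 FPKM in N deficiency (SD, n = 3). Each reached the minimum for testing only through the group where it was high, as did 1 other gene counted as higher in P deficiency, so no p is given for them. LOC100285539, described as an ABI3-interacting protein, had 20.4 ± 1.37 FPKM in the control and 21.0 to 24.5 FPKM in the deficient means and was not called.

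Abscisic acid is the hormone that acts with VP1 on these genes in seeds, and its genes fell more often than they rose. Of 20 tested, 6 fell and 1 rose in K deficiency, 7 fell and none rose in N deficiency, and 7 fell and 1 rose in P deficiency. Their medians were -0.30, -0.43 and -0.43 on the log2(FPKM + 1) scale. Over all tested genes 3.89% fell and 4.83% rose in K, 9.33% and 9.63% in N, and 10.4% and 13.0% in P deficiency. The 8'-hydroxylases inactivate the hormone. IDP1977, one of them and counted as lower in all 3 deficiencies, had 3.15, 2.32 and 2.28 FPKM in the control and at most 0.796 FPKM in any deficient library. It reached the minimum for testing only with the control libraries, so no p is given. LOC103653298, another, fell from 5.47, 4.92 and 2.72 FPKM to at most 1.18 FPKM, with limma adjusted p-values of 0.00104, 1.16e-05 and 3.71e-05 in K, N and P deficiency. LOC100285223, an ABI1-type protein phosphatase that restrains the hormone's signal, fell from 23.6 ± 9.44 FPKM to 3.65 ± 1.87, 0.510 ± 0.164 and 0.691 ± 0.446 FPKM (SD, n = 3), with limma adjusted p-values of 0.00171, 2.15e-05 and 3.57e-05.

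The vp14 enzyme of abscisic acid synthesis cleaves carotenoids in the first committed step. vp14 itself had 45.2 ± 17.5 FPKM in the control and 31.5 to 57.3 FPKM in the deficient means, with no call. LOC100281391, described as viviparous-14, fell in P deficiency from 308 ± 102 to 124 ± 13.1 FPKM (limma, adjusted p = 0.00888). LOC100281136, with the same description, rose in K deficiency from 0.648 ± 0.303 to 3.98 ± 1.72 FPKM (limma, adjusted p = 0.0038) and differed between N and K deficiency by -1.54 on the log2(FPKM + 1) scale (limma, adjusted p = 0.0034). The kinase gene SnRK2.2, which carries the hormone's signal, had 67.8 ± 10.7 FPKM in the control and was not called.

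The LEA and dehydrin genes, which protect seeds and dry tissues and accompany storage proteins in the embryo, fell more often than they rose. Of 37 tested, 17 fell and 2 rose in K deficiency, 17 fell and 3 rose in N deficiency, and 18 fell and 2 rose in P deficiency. Their medians were -0.36, -0.46 and -0.27 on the log2(FPKM + 1) scale. Beside them 3.89%, 9.33% and 10.4% of all tested genes fell in K, N and P deficiency, and 4.83%, 9.63% and 13.0% rose. Of the LEA genes that fell, 2 in each comparison reached the minimum for testing only through the control. Dehydrin 1 (dhn1) had 7446, 5058 and 4042 FPKM in the control, 163 to 418 FPKM in K deficiency, 7.45 to 51.9 FPKM in N deficiency and 46.6 to 139 FPKM in P deficiency. It fell with limma adjusted p-values of 0.00151, 7.59e-06 and 7.52e-05, and its difference of N from K deficiency was -3.72 on the log2(FPKM + 1) scale (limma, adjusted p = 0.00311). LOC100280469, an embryonic protein of the DC-8 type, fell from 72.9 ± 28.5 to 1.90 ± 1.18, 0.504 ± 0.515 and 0.992 ± 0.212 FPKM, with limma adjusted p-values of 4.36e-05, 1.82e-06 and 5.57e-06.

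LOC100286287, a Lea14-A gene, fell from 236 ± 60.6 to 13.6 ± 7.14, 3.05 ± 0.786 and 7.32 ± 1.64 FPKM, with limma adjusted p-values of 6.93e-05, 1.01e-06 and 5.79e-06. Some LEA genes kept more of their level. The dehydrin dhn2 fell from 503 ± 88.9 to 177 ± 5.63, 218 ± 58.0 and 215 ± 56.5 FPKM, with limma adjusted p-values of 0.0032, 0.00453 and 0.00481. LOC100281087, a dehydrin of the COR410 type, fell from 1046 ± 226 to 443 ± 83.7, 443 ± 216 and 384 ± 91.9 FPKM, with limma adjusted p-values of 0.0357, 0.014 and 0.00957. Its K and N calls were lost under 6 and 4 of 15 alternatives. The summed LEA list was 13596, 10027 and 8093 FPKM in control libraries 1_3, 4_6 and 7_9, and 1647 to 2243 FPKM in the deficient libraries. Control library 1_3 was thus the highest in the LEA sum and control library 7_9 the lowest, as for oleosin, ole1, OBAP1A and pco130570. Other genes did not share this order. Control library 7_9 was the highest for glb1 and cl2-1, and control library 4_6 for oleosin3 and LOC542101. The part that a difference between control libraries has in these results was not tested beyond leaving out each library.

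The 12 genes whose profile over the 12 libraries was most like the mean standardised profile of the 6 tested oleosin and storage protein genes had a Pearson r of 0.917 to 0.949, given as a description. That mean profile includes LOC542101, which runs the other way. Those with a descriptive name were an aspartyl protease (LOC100304289, r = 0.933), a NAC-domain transcription factor (LOC100502408, r = 0.927), a protein phosphatase 2C (LOC100382283, r = 0.924), an adenine nucleotide alpha hydrolase-like protein (LOC100193673, r = 0.918), the proline synthesis enzyme pyrroline-5-carboxylate synthetase (pco085448, r = 0.918) and a LEA protein (LOC103641198, r = 0.917). LOC103641198 had 179, 114 and 82.7 FPKM in the control and 0.722 to 5.17 FPKM in the deficient libraries. pco085448 had 31.5, 19.9 and 20.3 FPKM in the control and 1.90 to 8.38 FPKM in the deficient libraries, so its groups did not overlap either. The other 6 were LOC103635304, LOC103643955, pco156628, LOC103629799, LOC103626986 and LOC103636608, which the tables do not describe further.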

How the data were processed

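Total RNA from 12 root libraries was sequenced. The authors deposited 3 tables, 1 per deficiency against the control, with FPKM per library, per the file headers. Control values did not differ between the tables. The authors also deposited a mean signal per group, in counts divided by a size factor. Their deposited fold is the ratio of a pair of such means, with its log2 beside it. P-values from the authors' deposited comparison were not used. The aligner, genome build, annotation and treatment of reads that map to several genes are, like other upstream steps, not given in the sources used here, so reads of near-identical family members are uncertain. No coordinates are printed.

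The design planned edgeR for read counts, which the files do not hold per library, so limma 3.58.1 (R 4.3.3) with an intensity trend was fitted on log2(FPKM + 1) with group as the only term over 12 libraries. It covered 24311 genes with FPKM of at least 0.5 in at least 3 libraries, adjusted by Benjamini-Hochberg, threshold 0.05; fold differences on this scale understate the change of low genes. The text's folds are ratios of mean FPKM. Whole reads were recovered from the group means for 100% of genes above 0, and in K deficiency 92.7% of these had 1 solution, as did all 8 genes described. Between 5 and 18 genes per library were listed at 0 FPKM with at least 50 reads, so genes with such zeros are given per library. Of gene identifiers, 87.4% were in the RefSeq table. Python 3.11.15, pandas 2.3.3, numpy 2.4.6, scipy 1.17.1 and matplotlib 3.10.9 were used. The fit was tested on simulated data.

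The genes, the 9 lists, matched on names and descriptions, and the tests were chosen with earlier results of these data known. Besides the 8 genes, the text names from each list the 3 tested genes with the smallest p and the 3 with the highest level, the 12 genes most like the mean profile, and the regulator vp1 whatever its level; lec1, o2 and pbf1 were named after their values were seen. Alternatives were pseudocounts of 0.1 and 10, other filters, 2 scalings, a replicate block, the 6 compared libraries, leaving out each library, and limma with voom weights on recovered reads, which was added after seeing the data.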

Additional observations from a re-analysis of the deposited data

How the results depend on the processing

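Fitted differences of oleosin, ole1, pco130570, cl2-1 and LOC542101 kept their sign under every alternative that gave a value (13 or 15). LOC100283693 in N deficiency kept it under 14 of 15. The genes were chosen on these levels, so a kept sign is a description and no support. The fitted log2 differences varied in size. They ran from -7.36 to -2.30 for oleosin in N deficiency and from -2.50 to -0.107 for ole1 in K deficiency. For cl2-1 in K deficiency they ran from -0.748 to -0.483. oleosin3 and glb1 were fitted only without the filter. Of 1887 alternative values for the named list genes, 1792 kept direction and call, 70 lost the call, 25 gained it and none reversed. The number of genes called was 2120 for K, 4609 for N and 5691 for P deficiency against the control, and leaving out 1 library gave 987 to 2329, 2765 to 4411 and 2397 to 6306, each lowest without control library 1_3. Between deficiencies it was 2740 for N against P, 2384 for N against K and 2245 for P against K, with 1273 to 3188, 1367 to 1899 and 943 to 2650 on leaving out 1 library. In the fits of the 6 compared libraries the count moved to 3304 for P deficiency and to 1420 for N against P. With the replicate block the counts were 1938, 4536, 5556, 2769, 2394 and 2163. After group means were removed, like-labelled libraries correlated above 0.1 in 10 of 18 pairs, with r from -0.388 to 0.334. Of the 12 libraries, 4 were most like a library of their own label among the other groups. The labels were therefore not taken as pairing. Voom on recovered reads called 2434, 5414 and 6704 genes against the control. It turned the balance of higher and lower genes from 1174 and 946 to 1065 and 1369 in K, from 2341 and 2268 to 2623 and 2791 in N, and from 3169 and 2522 to 3238 and 3466 in P deficiency. Median-ratio scaling turned the balance in K (1056 and 1222) and N (2390 and 2601), and upper-quartile scaling in N (2288 and 2544). In N it also turned without the filter (2155 and 2234) and with the replicate block (2256 and 2280). The fit of the 6 compared libraries turned it in N (1817 and 1834) and P (1630 and 1674). Leaving out 1 library turned it in some fits. Without control library 4_6 it was 667 and 754 in K, 2019 and 2209 in N, and 1684 and 2030 in P deficiency. Depth limits oleosin3, ole1 and glb1, whose deficient groups hold at most 6 reads. The causes were not tested.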
